A study of Homo sapiens with 4 samples.

Results

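The genes described here are 35 chaperones, folding enzymes, degradation factors and stress sensors of the endoplasmic reticulum (ER), read on 4 expression arrays of lung adenocarcinoma cells. They were chosen by name, and their values are those of every probe set whose single platform gene symbol is a member. A probe set is a small group of oligonucleotides that reads 1 stretch of a transcript. Of the 35 genes, 32 had such a probe set, out of 19775 genes on the array, and they were read by 81 of 41097 probe sets. PDIA5, SYVN1 and TXNDC5 were read only by probe sets that carry a second symbol, so no value is given for them. The brightest probe set of each of the 32 genes lay above the low-signal floor on all 4 arrays.

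The ER folds and glycosylates proteins that enter the secretory pathway. HSPA5 (BiP), its J-protein partners, the lectins calnexin and calreticulin and the protein disulfide isomerases bind nascent chains, and chains that fail to fold are moved back to the cytosol for degradation. When unfolded protein accumulates, the sensors ERN1 (IRE1), ATF6 and EIF2AK3 (PERK) start the unfolded protein response: ERN1 splices XBP1 mRNA, ATF6 is cut in the Golgi to release a transcription factor, and EIF2AK3 slows translation while ATF4 is made. ATF6 and spliced XBP1 bind ER stress elements in the promoters of chaperone genes. Splicing of XBP1 and cleavage of ATF6 are not read by these arrays.

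CL1-0 is a human lung adenocarcinoma line and CL1-5 a more invasive line derived from it. All 4 cultures were stably transduced and kept under puromycin selection. They were CL1-5 with AK4 shRNA, CL1-5 with non-silencing shRNA, CL1-0 labelled as carrying an AK4 vector and CL1-0 with control vector, with 1 array in each group. AK4 is an adenylate kinase of the mitochondrial matrix. Whether the cultures were pools or single clones, and how many shRNA sequences were used, is not given in the sources used here. With 1 array in a group no difference has a replicate check, so no p-value is given and every difference below compares arrays, not conditions.

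AK4 was read by 4 probe sets. Their log2 ratio of AK4 shRNA over non-silencing shRNA in CL1-5 lay between -1.25 and -0.88. On the CL1-0 array labelled AK4 vector the same probe sets gave log2 ratios between -0.25 and -0.05 against control vector, so the AK4 signal was not higher there, and these probe sets do not show the labelled overexpression. Whether they lie in the part of AK4 that the vector carries is not stated in the labels, and a probe set outside it would check nothing. Such a probe set could not show an exchange of labels between the CL1-0 arrays either. An exchange would turn the sign of every vector ratio below, and it was not tested. Signals correlated at a Spearman rho of 0.990 between the CL1-5 arrays, 0.966 between the CL1-0 arrays and 0.862 to 0.874 across lines, over probe sets, which are not independent. The ratio of the 3′ to the 5′ probe set of beta-actin, a measure of RNA or labelling quality, was 1.61 and 1.34 on the CL1-5 arrays with AK4 shRNA and non-silencing shRNA, against 6.54 and 6.04 on the CL1-0 arrays labelled AK4 vector and with control vector. The labels call both lines alveolar type II cells. Of 8 markers of that cell type with a probe set, 5 lay above the floor on all 4 arrays and SLC34A2 on none, and their summed signal was 133 and 137 in CL1-5 against 347 and 401 in CL1-0. LAMP3, a lysosomal membrane protein, gave most of that gap, at 4.66 and 5.08 against 160 and 210.0, while NAPSA, a protease, lay the other way at 19.2 and 19.6 against 8.99 and 9.495. Of 6 epithelial markers 3 lay above the floor on all 4 arrays, with summed signals of 1771 and 2009 in CL1-5 against 57.6 and 50.7 in CL1-0. Nearly all of that sum came from the keratins KRT18, at 1485 and 1681 against 10.8 and 12.1, and KRT8, at 258 and 299 against 10.2 and 12.0. The junction protein CLDN4 did not follow them, at 12.6 and 11.8 against 14.1 and 13.8, and EPCAM and CDH1 passed the floor only on the array labelled AK4 vector. Of 6 fibroblast markers 2 lay above the floor on all 4 arrays and COL3A1, LUM and PDGFRA on none, with summed signals of 96.5 and 121 in CL1-5 against 89.1 and 85.8 in CL1-0. Of 4 leukocyte markers with a probe set CD3E lay above the floor on all 4 arrays, close to it at 7.01 to 8.26, and PTPRC and LYZ on none. Of 4 plasma cell markers JCHAIN and TNFRSF17 lay above the floor on no array and MZB1 on the CL1-5 arrays only, at 17.4 and 18.6. SDC1, which epithelial cells also make, read 724 and 718 in CL1-5 against 46.7 and 43.8 in CL1-0. In RNA of a whole culture, fewer cells of a type and less RNA per cell cannot be told apart.

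Promoter sequence was available for 31 of the 35 genes, as RefSeq windows of GRCh38.p14 from 250 bases before to 50 bases after the gene start. Each window was searched on both strands for 3 letter strings: the ER stress element (ERSE, CCAAT and CCACG with any 9 bases between them), the shorter ERSE-II (ATTGG and CCACG with any 1 base between them) and the unfolded protein response element (UPRE, TGACGTGG). ERSE was found in 27 of 35116 windows (0.0769%) and in 7 of the 31 genes, HSPA5, HSP90B1, CRELD2, CALR, CANX, PDIA6 and XBP1. ERSE-II was found in 19 windows (0.0541%) and in HYOU1, SDF2L1 and HERPUD1. UPRE was found in 256 windows (0.729%) and in HYOU1, DNAJC10, TXNDC5 and TXNDC11, and the HYOU1 match overlaps an ERSE-II match there. ERSE was defined on promoters of genes of this kind, so its share among them, 22.6% against 0.0916% of all 27305 genes, is a description. A match is not a binding site, and no match says only that these letters are not in the window.

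The 250 bases before the gene start are shown for 4 genes, read along the gene strand with the match in capitals. They show ERSE and ERSE-II matches beside members whose levels are described below, and none of the 4 holds a UPRE match. HSPA5 lies on the minus strand at chr9:125241344-125241593, HSP90B1 on the plus strand at chr12:103930160-103930409, HERPUD1 on the plus strand at chr16:56931892-56932141 and XBP1 on the minus strand at chr22:28800570-28800819. HSPA5 and XBP1 hold 1 ERSE each, HERPUD1 holds 1 ERSE-II, and HSP90B1 holds 2 ERSE matches, the second of them on the opposite strand.
HSPA5: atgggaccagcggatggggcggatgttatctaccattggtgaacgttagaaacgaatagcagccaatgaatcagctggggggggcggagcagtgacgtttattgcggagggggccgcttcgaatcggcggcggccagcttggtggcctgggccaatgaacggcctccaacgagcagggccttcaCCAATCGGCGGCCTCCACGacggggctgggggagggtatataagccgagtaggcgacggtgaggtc
HSP90B1: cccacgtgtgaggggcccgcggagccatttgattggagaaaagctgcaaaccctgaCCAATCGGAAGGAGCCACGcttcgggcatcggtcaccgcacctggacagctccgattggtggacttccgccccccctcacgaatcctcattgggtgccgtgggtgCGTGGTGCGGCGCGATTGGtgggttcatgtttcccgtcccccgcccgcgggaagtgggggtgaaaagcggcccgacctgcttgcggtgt
HERPUD1: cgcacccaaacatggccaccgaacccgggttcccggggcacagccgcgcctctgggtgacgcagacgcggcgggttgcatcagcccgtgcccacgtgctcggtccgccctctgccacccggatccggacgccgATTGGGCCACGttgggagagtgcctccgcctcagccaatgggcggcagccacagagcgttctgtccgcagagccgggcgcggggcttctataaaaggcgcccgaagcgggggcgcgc
XBP1: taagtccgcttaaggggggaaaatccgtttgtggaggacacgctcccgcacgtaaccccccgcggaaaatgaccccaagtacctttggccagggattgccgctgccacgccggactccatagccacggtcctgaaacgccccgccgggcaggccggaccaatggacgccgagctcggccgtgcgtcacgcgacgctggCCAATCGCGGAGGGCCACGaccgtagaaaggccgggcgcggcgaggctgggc

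Signals below are linear intensities in arbitrary units, scaled to a common trimmed mean per array and read from the brightest probe set of a gene. Probe sets differ in their response, so signals are compared between arrays for 1 gene and never between genes. Ratios are on the log2 scale, and a gene is called higher or lower where 2 arrays differ at least 2-fold, which is 1 on that scale. The vector comparison sets the CL1-0 array labelled AK4 vector against control vector, and the shRNA comparison sets AK4 shRNA against non-silencing shRNA in CL1-5. CL1-5 was set against CL1-0 in a pair of line comparisons. On the AK4 arrays AK4 shRNA was set against labelled AK4 vector, and on the control arrays non-silencing shRNA against control vector. The AK4 arrays carry opposite manipulations of AK4 by their labels, so line and AK4 construct cannot be told apart there. Each line comparison shares an array with each comparison within a line, so their values are not independent.

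**Figure D1:**
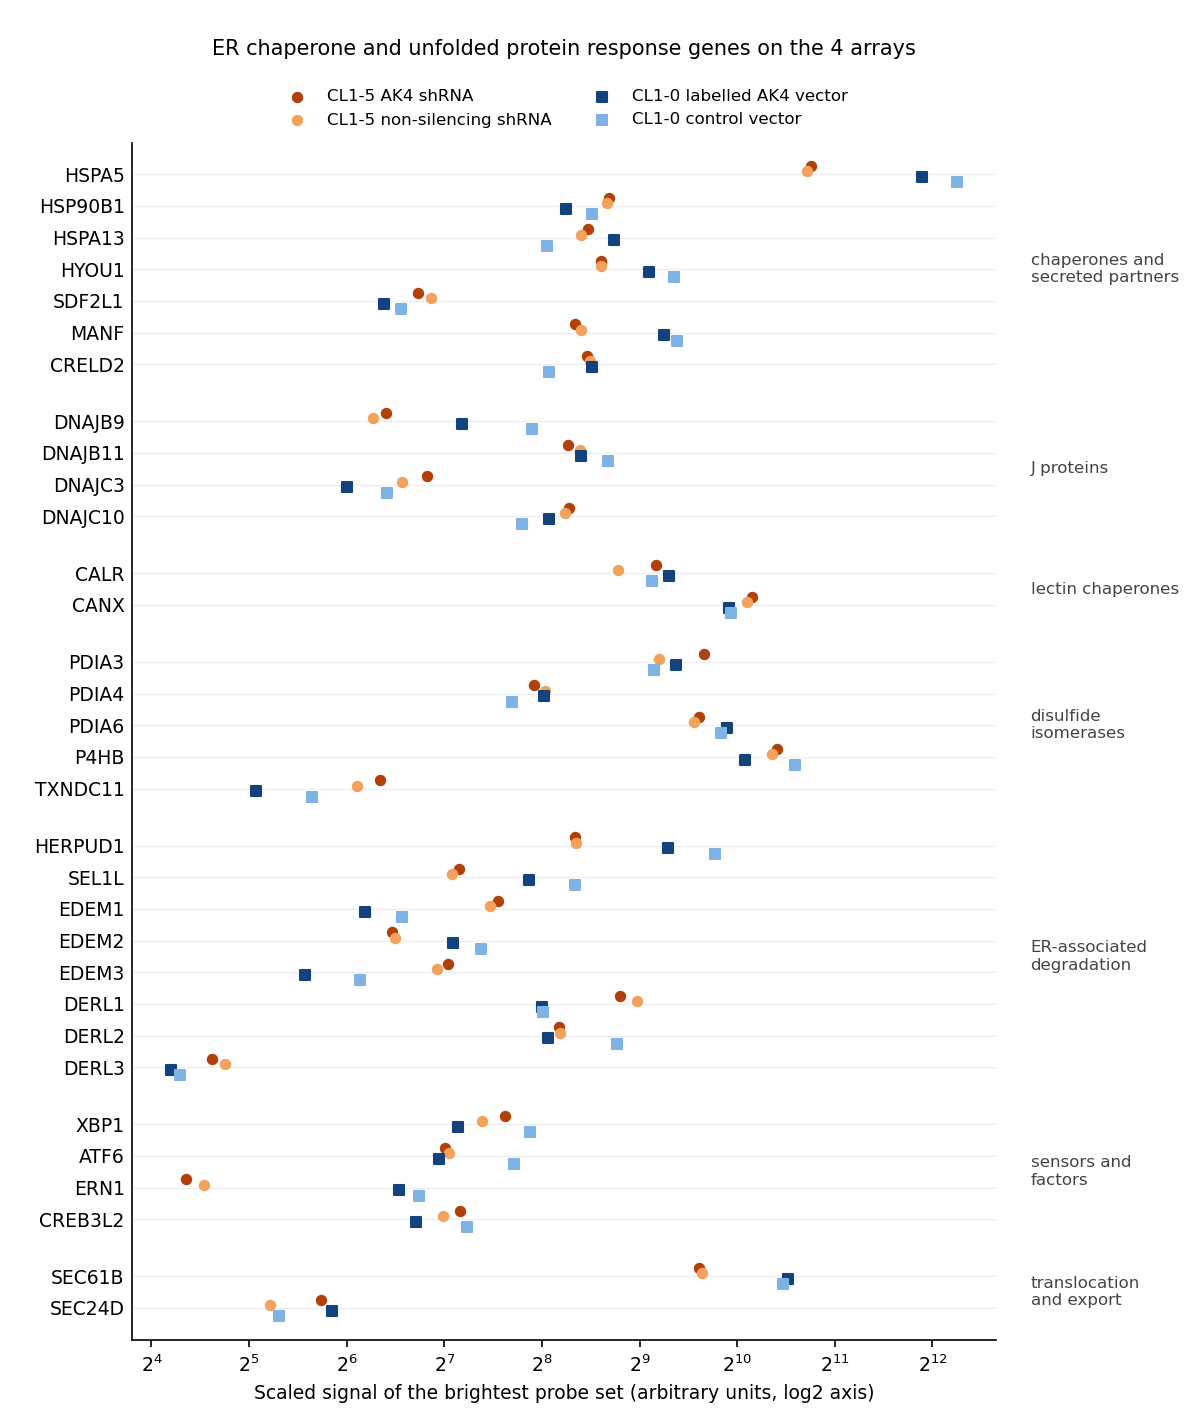
Scaled signal of the brightest probe set of 32 genes on the 4 arrays, on a log2 axis in arbitrary units, with genes grouped by role down the page. Each point is 1 array, circles for CL1-5 and squares for CL1-0. HSPA5, at 1727 and 1683 in CL1-5 against 3794 and 4866 in CL1-0, shows the lines apart, while CRELD2 and XBP1 show them overlapping.

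HSPA5 is the HSP70 chaperone of the ER and the protein that holds the stress sensors inactive. Its signal was 1727 with AK4 shRNA and 1683 with non-silencing shRNA in CL1-5, against 3794 on the CL1-0 array labelled AK4 vector and 4866 with control vector. Both CL1-5 arrays lay below both CL1-0 arrays. The log2 ratio of CL1-5 over CL1-0 was -1.53 on the control arrays and -1.14 on the AK4 arrays, so HSPA5 was called lower in both. Its second probe set gave -0.38 and -0.37, on the same side and under 2-fold. Within the lines the log2 ratio was -0.36 in the vector comparison and 0.04 in the shRNA comparison.

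The partners of HSPA5 and the other large chaperones did not follow 1 pattern. HYOU1, which exchanges nucleotide on HSPA5, read 390.1 and 390.3 in CL1-5 with AK4 shRNA and non-silencing shRNA, against 546 and 656 in CL1-0 labelled AK4 vector and with control vector. MANF, a small secreted protein that binds HSPA5, read 323 with AK4 shRNA and 339 with non-silencing shRNA, against 609 labelled AK4 vector and 668 with control vector. For both genes the CL1-5 arrays lay below the CL1-0 arrays, with log2 ratios on the control arrays of -0.75 for HYOU1 and -0.98 for MANF. HSP90B1 (GRP94), the HSP90 chaperone of the ER, read 413 and 406 in CL1-5 with AK4 shRNA and non-silencing shRNA, against 303 and 366 in CL1-0 labelled AK4 vector and with control vector. SDF2L1, a lumenal partner of the J protein DNAJB11, read 106 with AK4 shRNA and 117 with non-silencing shRNA, against 83.2 labelled AK4 vector and 94.0 with control vector. By their brightest probe sets these genes lay higher on both CL1-5 arrays, under 2-fold. The HSP90B1 ratio on the control arrays, 0.15, turned negative when arrays were scaled to a common median. Its second probe set gave -0.03 on the control arrays and 0.29 on the AK4 arrays.

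HSPA13, an HSP70-like protein of the ER, and CRELD2, a secreted stress-responsive protein, read higher on the array labelled AK4 vector than with control vector. HSPA13 read 354 with AK4 shRNA and 337 with non-silencing shRNA in CL1-5, against 428 labelled AK4 vector and 265 with control vector in CL1-0. Its vector log2 ratio of 0.69 was the highest of the 32 genes, but its other probe set gave -0.08. CRELD2 read 351.2 with AK4 shRNA and 359 with non-silencing shRNA, against 366 labelled AK4 vector and 269 with control vector. Its log2 ratio was 0.45 in the vector comparison and -0.03 in the shRNA comparison, so only the control vector array stood apart.

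The J proteins hand substrates to HSPA5. DNAJB9 (ERdj4), which also restrains ERN1, read 84.3 with AK4 shRNA and 77.2 with non-silencing shRNA in CL1-5, against 144.6 labelled AK4 vector and 239 with control vector in CL1-0. It was called lower in CL1-5 on the control arrays, at a log2 ratio of -1.63, and was under 2-fold on the AK4 arrays, at -0.78. All 3 of its probe sets lay below 0 in both line comparisons, between -2.64 and -0.28 on the control arrays. In the vector comparison DNAJB9 had a log2 ratio of -0.73, while its other probe sets gave 0.02 and -0.46.

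DNAJB11 (ERdj3) read 307 with AK4 shRNA and 334 with non-silencing shRNA in CL1-5, against 339 labelled AK4 vector and 409 with control vector in CL1-0. The CL1-5 arrays lay below the CL1-0 arrays by a small margin. DNAJC10 (ERdj5), a J protein that also reduces disulfides, lay the other way, at 309 with AK4 shRNA and 300.6 with non-silencing shRNA, against 269.7 labelled AK4 vector and 223 with control vector. DNAJC3 (p58IPK), a co-chaperone that was first known as an inhibitor of the kinase PKR, read 113 with AK4 shRNA and 94.9 with non-silencing shRNA, against 64.0 labelled AK4 vector and 85.4 with control vector. Its 4 probe sets disagreed: the brightest gave 0.25 in the shRNA comparison and the other 3 gave -0.81, -0.58 and -0.99. Between the lines on the control arrays they gave 0.15, 3.45, 0.57 and 3.23, so the size of the DNAJC3 difference changed with the probe set. The control vector signal was 7.64, close to the floor, for the 3.45 and 4.25, under the floor, for the 3.23, so these sizes are uncertain.

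The lectin chaperones CALR (calreticulin, lumenal) and CANX (calnexin, in the membrane) hold glycoproteins in the folding cycle. CALR read 574 with AK4 shRNA and 438 with non-silencing shRNA in CL1-5, against 633 labelled AK4 vector and 561 with control vector in CL1-0. In the shRNA comparison its log2 ratio was 0.39, and its other probe sets gave 0.17 and 0.55, all above 0. In the vector comparison the brightest gave 0.17 and the others -1.30 and -0.48, so the direction depended on the probe set. CANX read 1141 with AK4 shRNA and 1099 with non-silencing shRNA, against 963 labelled AK4 vector and 981 with control vector. Its CL1-5 arrays lay higher by a log2 ratio of 0.16 on the control arrays, where the other 3 measured probe sets lay between 0.90 and 1.86.

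Disulfide isomerases form and shuffle disulfide bonds. PDIA3 (ERp57), the partner of both lectins, read 808 with AK4 shRNA and 586 with non-silencing shRNA in CL1-5, against 662 labelled AK4 vector and 568 with control vector in CL1-0. The AK4 shRNA array was the highest, at a log2 ratio of 0.46 over non-silencing shRNA, with 0.21 and -0.04 from its other probe sets. PDIA4 read 243 with AK4 shRNA and 261 with non-silencing shRNA, against 260.0 labelled AK4 vector and 207 with control vector. PDIA6 read 781 with AK4 shRNA and 755 with non-silencing shRNA, against 954 labelled AK4 vector and 911 with control vector. The lines overlapped for PDIA3 and PDIA4 and did not for PDIA6, which was lower in CL1-5 by its brightest probe set and higher, at 1.47, by another on the control arrays.

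P4HB is the disulfide isomerase that also serves as the beta subunit of collagen prolyl hydroxylase. It read 1356 with AK4 shRNA and 1315 with non-silencing shRNA in CL1-5, against 1080 labelled AK4 vector and 1542 with control vector in CL1-0. The CL1-0 arrays lay on either side of the CL1-5 arrays, and the vector log2 ratio was -0.51, with -0.61 from each of the other probe sets. P4HB gave a line log2 ratio of -0.23 on the control arrays, with 2.22 and 1.07 from the others. TXNDC11, a thioredoxin-domain protein of the ER membrane, read 80.8 with AK4 shRNA and 69.0 with non-silencing shRNA, against 33.7 labelled AK4 vector and 50.1 with control vector. It has 1 probe set and was called higher in CL1-5 on the AK4 arrays, at 1.26, but not on the control arrays, at 0.46.

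ER-associated degradation carries misfolded chains out of the ER. HERPUD1, which helps to assemble the ligase complex around SYVN1, read 324 with AK4 shRNA and 325 with non-silencing shRNA in CL1-5, against 628 labelled AK4 vector and 874 with control vector in CL1-0. SEL1L, the adaptor of that ligase, read 142 with AK4 shRNA and 136 with non-silencing shRNA, against 234 labelled AK4 vector and 323 with control vector. Both genes were called lower in CL1-5 on the control arrays, at log2 ratios of -1.43 for HERPUD1 and -1.25 for SEL1L, and neither on the AK4 arrays, at -0.96 and -0.72. The dim second probe set of HERPUD1 gave 0.30 on the control arrays, and the other SEL1L probe sets gave 1.60, -0.05 and 0.72. The -0.05 is bounded by the floor, from 3.34 with non-silencing shRNA, under it, and 7.20 with control vector, so its size is not known. The probe sets at 1.60 and 0.72 lay the other way from the brightest.

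EDEM1, EDEM2 and EDEM3 trim mannose from misfolded glycoproteins and so mark them for removal. EDEM1 read 187 with AK4 shRNA and 177 with non-silencing shRNA in CL1-5, against 73.1 labelled AK4 vector and 94.4 with control vector in CL1-0. EDEM3 read 131 with AK4 shRNA and 122 with non-silencing shRNA, against 47.5 labelled AK4 vector and 70.6 with control vector. Both were called higher in CL1-5 on the AK4 arrays, at log2 ratios of 1.36 for EDEM1 and 1.46 for EDEM3, and fell short of 2-fold on the control arrays, at 0.91 and 0.79. EDEM2 lay the other way, at 88.1 with AK4 shRNA and 90.3 with non-silencing shRNA, against 136 labelled AK4 vector and 166 with control vector. The brightest probe sets thus put EDEM1 and EDEM3 higher and EDEM2 lower on both CL1-5 arrays. The other EDEM3 probe sets gave 2.30 and -0.16 on the control arrays and 1.48 and 0.78 on the AK4 arrays, while EDEM1 and EDEM2 have 1 probe set each.

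The derlins are membrane proteins of the export channel. DERL1 read 446 with AK4 shRNA and 502 with non-silencing shRNA in CL1-5, against 256 labelled AK4 vector and 257 with control vector in CL1-0. Its log2 ratio on the control arrays was 0.96, close to 2-fold, and all 4 probe sets lay above 0 there, between 0.39 and 1.49. DERL2 read 289 with AK4 shRNA and 292 with non-silencing shRNA, against 267 labelled AK4 vector and 436 with control vector, so only the control vector array stood apart by this probe set. Its vector log2 ratio was -0.71, and the other DERL2 probe set gave 0.26, at 77.5 labelled AK4 vector against 65.0 with control vector. DERL3 was dim, at 24.6 with AK4 shRNA and 26.9 with non-silencing shRNA, against 18.4 labelled AK4 vector and 19.5 with control vector.

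The sensors and factors start the response. ERN1, the kinase and RNase that splices XBP1, read 20.4 with AK4 shRNA and 23.2 with non-silencing shRNA in CL1-5, against 92.5 labelled AK4 vector and 107 with control vector in CL1-0. ERN1 had the lowest line ratio of the 32 genes, -2.21 on the control arrays and -2.18 on the AK4 arrays, and was called lower in both. Its other probe sets gave 0.40 and -0.36 on the control arrays, so the fold was not shared among them.

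XBP1, the transcription factor made from the spliced mRNA, read 198 with AK4 shRNA and 167 with non-silencing shRNA in CL1-5, against 141 labelled AK4 vector and 235 with control vector in CL1-0. Its brightest probe set gave a log2 ratio of -0.74 in the vector comparison and 0.24 in the shRNA comparison, where the labels name opposite manipulations of AK4. The dim second probe set of XBP1 gave 0.03 in the shRNA comparison and lay under the floor on the CL1-0 arrays. On the control arrays the brightest gave -0.49 and the second 1.06. ATF6 read 129 with AK4 shRNA and 132 with non-silencing shRNA, against 123 labelled AK4 vector and 209.6 with control vector. Its vector log2 ratio of -0.77 was the lowest of the 32 genes, while its other probe sets gave 0.52, 0.35 and 0.49. On the control arrays all 4 ATF6 probe sets lay below 0, between -1.24 and -0.66. CREB3L2, a membrane-bound factor related to ATF6, read 143 with AK4 shRNA and 127 with non-silencing shRNA, against 104 labelled AK4 vector and 149.9 with control vector. By the brightest probe sets the control vector array was the highest for all 3 factors. The other ATF6 probe sets were highest on the array labelled AK4 vector, and the second XBP1 probe set on the CL1-5 arrays.

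SEC61B is a subunit of the channel through which new chains enter the ER, and SEC24D selects cargo for COPII vesicles that leave it. SEC61B read 779 with AK4 shRNA and 799 with non-silencing shRNA in CL1-5, against 1470 labelled AK4 vector and 1415 with control vector in CL1-0. Its log2 ratio was -0.83 on the control arrays and -0.92 on the AK4 arrays. SEC24D read 53.2 with AK4 shRNA and 37.1 with non-silencing shRNA, against 57.5 labelled AK4 vector and 39.5 with control vector. SEC24D was higher on the AK4-labelled array of each line, by log2 ratios of 0.52 in the shRNA comparison, the highest of the 32 genes, and 0.54 in the vector comparison.

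**Figure D2:**
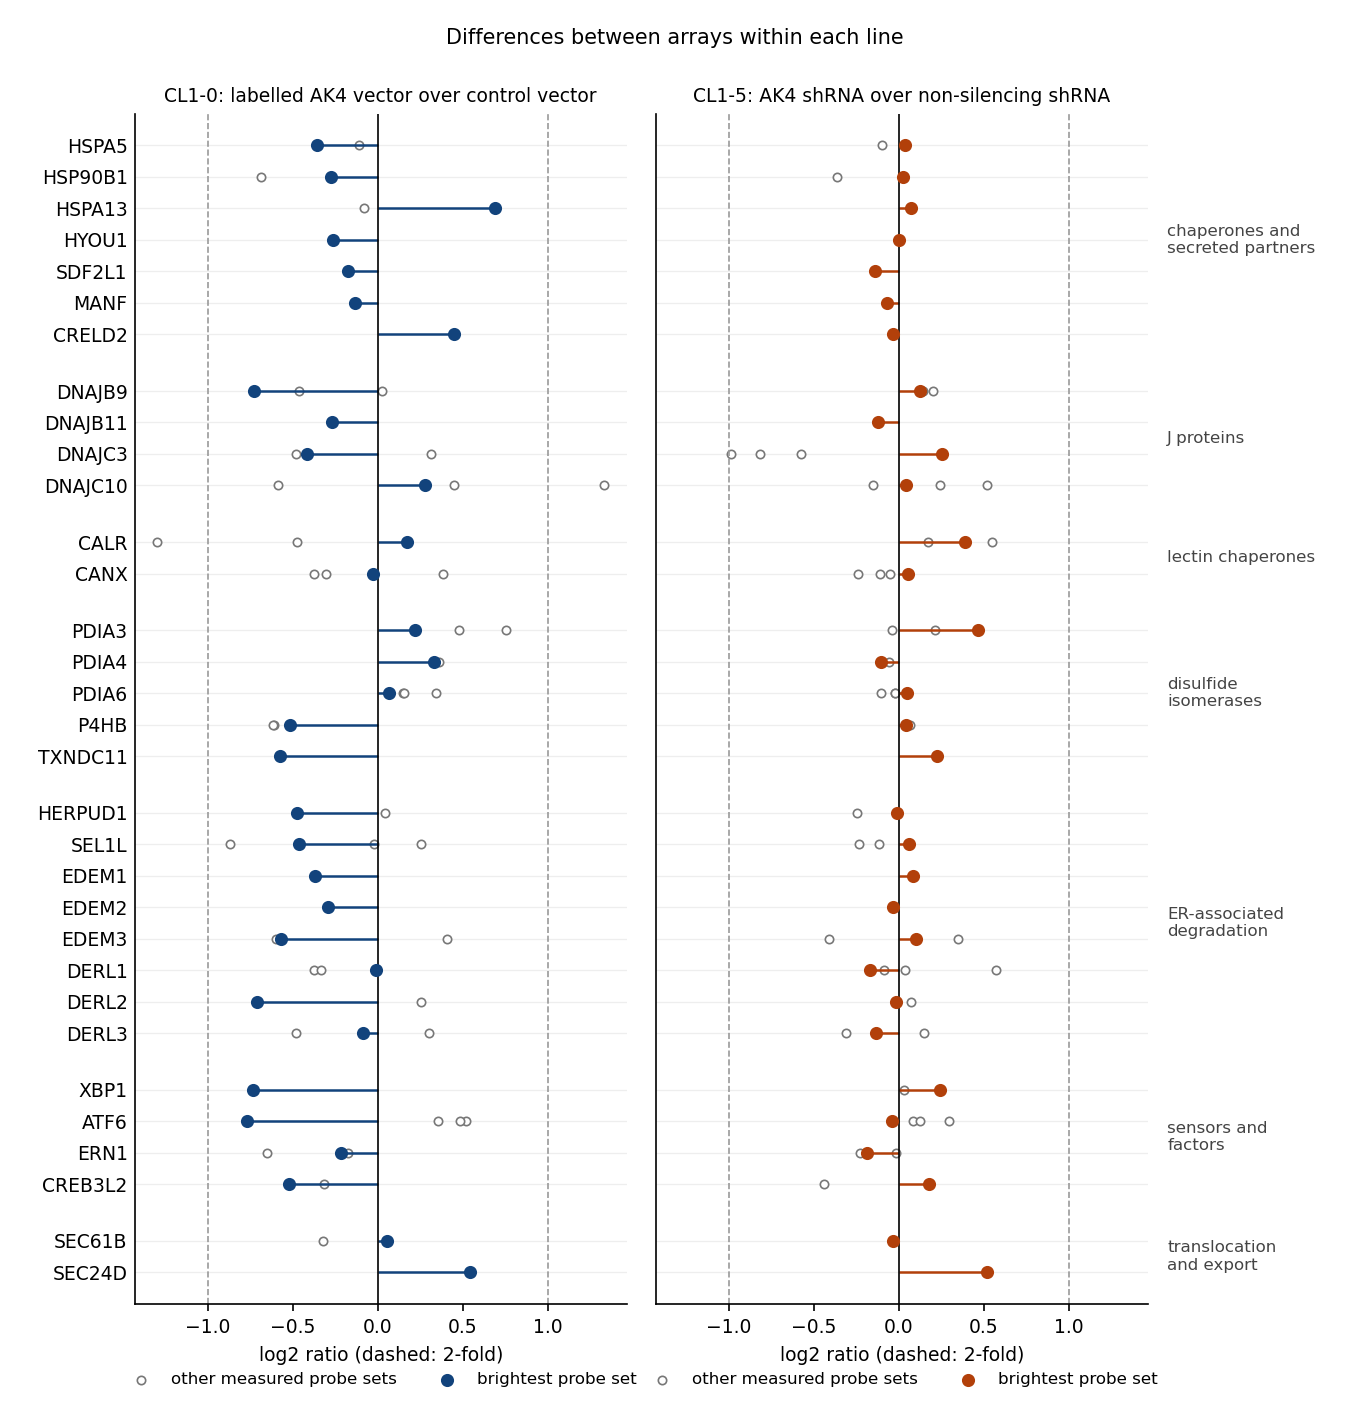
Log2 ratios of 32 genes within each line, CL1-0 labelled AK4 vector over control vector (left panel) and CL1-5 AK4 shRNA over non-silencing shRNA (right panel). Filled points are brightest probe sets, open points the other measured probe sets, and dashed lines mark 2-fold. No brightest probe set passes 2-fold, between -0.77 and 0.69 on the left and between -0.19 and 0.52 on the right.

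The vector comparison asked how the array labelled AK4 vector differs from control vector in CL1-0. No member was 2-fold higher and none 2-fold lower, where 3.22% of 14681 measured genes were higher and 1.16% lower. Of the 32 genes, 23 (71.9%) had a ratio below 0, against 43.9% of all genes, and 9 (28.1%) had one above 0, against 56.1%. The median log2 ratio of the members was -0.27, and of all measured genes 0.05. All 8 measured degradation genes lay below 0, at a median of -0.42, and so did all 4 sensors and factors, at a median of -0.63, by their brightest probe sets. Exceptions under the alternatives were DERL1, at 0.01 with quantile normalization, HERPUD1, at 0.04 without its _s_at probe set, and ATF6, at 0.15 with its probe sets averaged. The 5 measured disulfide isomerases were split, 3 above and 2 below 0, at a median of 0.07. The SD among probe sets of the same gene, pooled over genes, was 0.41 here. It takes in differences among transcripts, does not stand for replicates, and is larger than the members' median in size. The members' median stayed below 0 under 6 alternatives of scaling, floor and probe set choice, between -0.36 and -0.22.

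The shRNA comparison asked how AK4 shRNA differs from non-silencing shRNA in CL1-5, where the AK4 signal was lower on the shRNA array. Again no member was 2-fold higher or lower, and only 0.0914% of 15321 measured genes were higher and 0.0131% lower. Of the 32 genes, 18 (56.2%) had a ratio above 0, against 49.7% of all genes, and 14 (43.8%) had one below 0, against 50.3%. The median was 0.04, and of all genes -0.0015. The direction depended on the probe sets: averaging them gave 14 above and 18 below 0 at a median of -0.02, with 10 members changing sign, and leaving out those ending in _x_at and _s_at gave 13 and 14 at a median of -0.01. SEC24D at 0.52, PDIA3 at 0.46 and CALR at 0.39 had the highest ratios and ERN1 at -0.19 the lowest. The SD among probe sets of the same gene was 0.22. The brightest probe sets of SEC24D, PDIA3, CALR, DNAJC3, TXNDC11 and XBP1 lay beyond it.

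The within-line comparisons share no array. Of the 32 genes, 12 (37.5%) were below 0 in the vector and above 0 in the shRNA comparison, against 20.3% of all genes measured in both. Of the rest, 3 (9.38%) were above 0 in the vector and below 0 in the shRNA comparison, against 25.7%. A further 6 (18.8%) were above 0 in both, against 30.5%, and 11 (34.4%) below 0 in both, against 23.5%. These counts include ratios near 0, such as -0.0086 for DERL1 in the vector comparison, and no test of them is possible here.

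**Figure D3:**
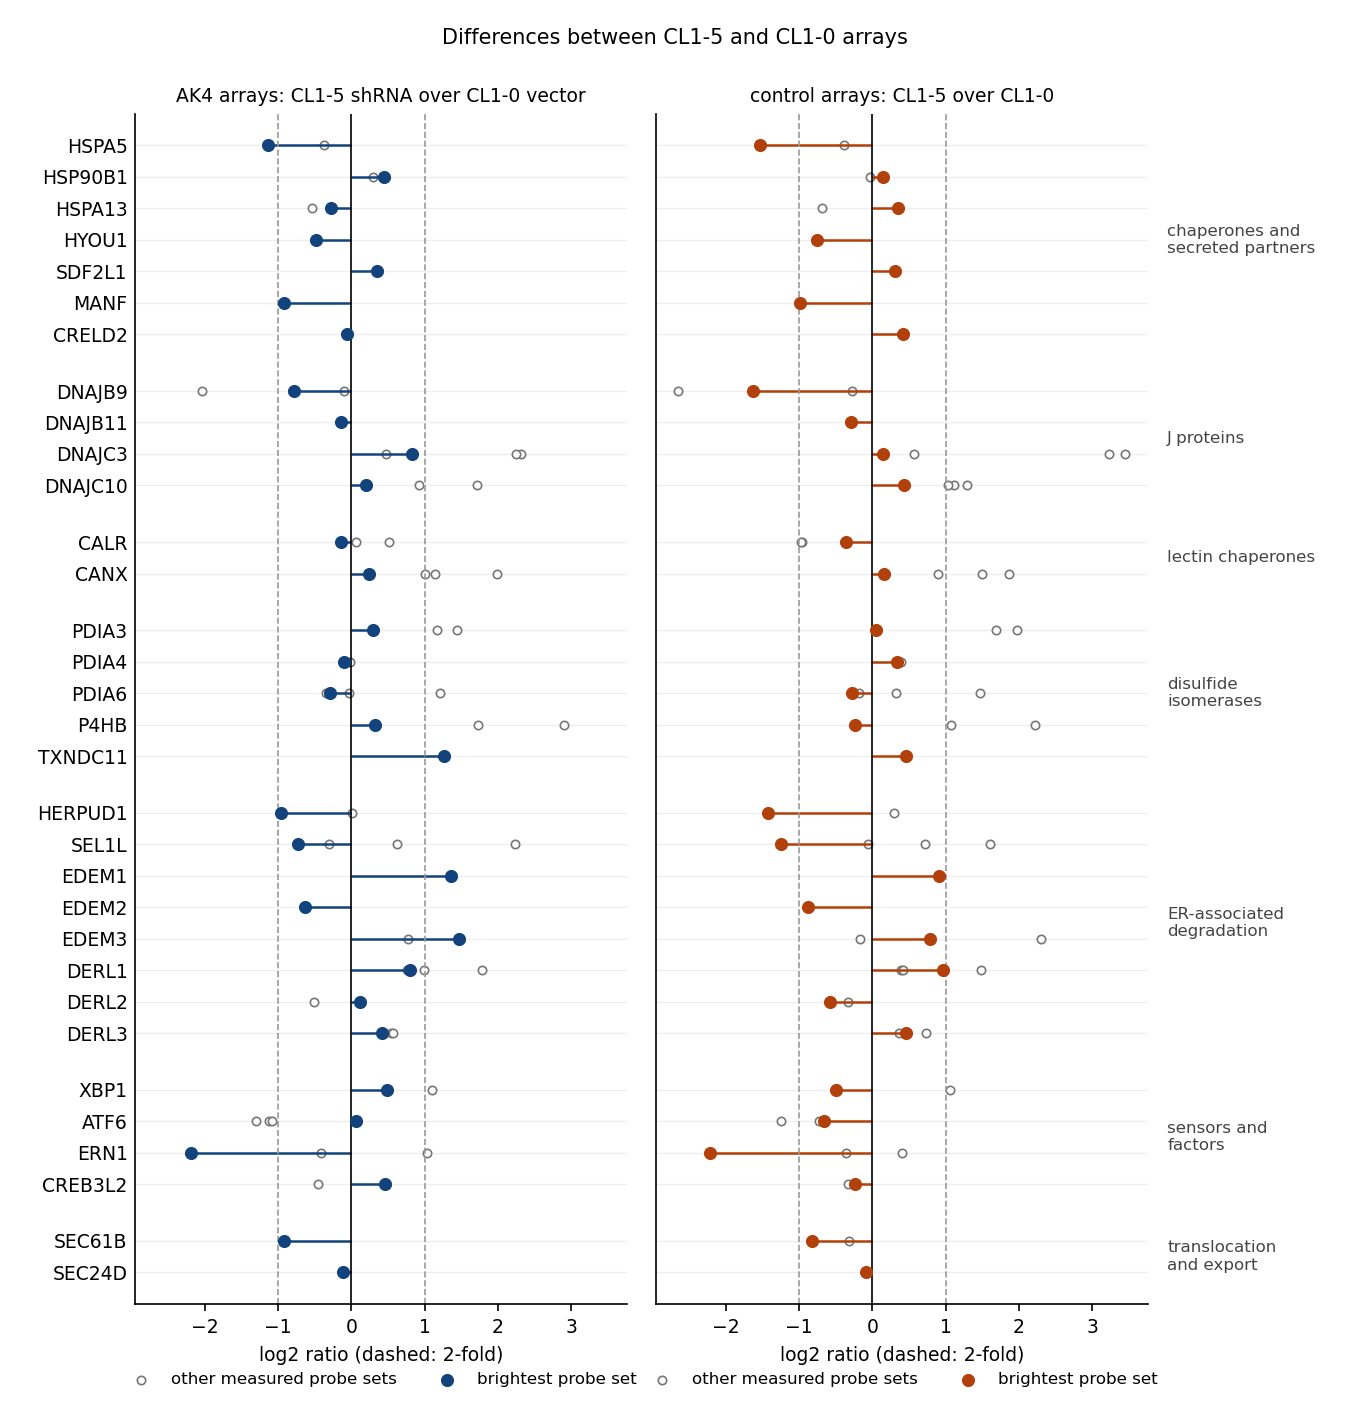
Log2 ratios of CL1-5 over CL1-0 for 32 genes, on the AK4 arrays (left panel) and on the control arrays (right panel). Filled points are brightest probe sets, open points the other measured probe sets, and dashed lines mark 2-fold. HSPA5 and ERN1 lie past 2-fold lower in both panels, while open points of DNAJC3 and P4HB lie far from their filled points.

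The lines differed in many genes. On the control arrays, of 15970 genes measured, 17.1% were 2-fold higher or more in CL1-5 and 14.2% lower. Of the 32 members none was higher and 5 (15.6%) lower: HSPA5, DNAJB9, HERPUD1, SEL1L and ERN1. The share lower is near that of all genes. Above 0 were 14 (43.8%), against 56% of all genes, and below 0 were 18 (56.2%), against 44%. The members' median was -0.24, and of all genes 0.13. On the AK4 arrays 14.7% of 15821 measured genes were higher and 14.8% lower. Of the members 3 (9.38%) were higher, TXNDC11, EDEM1 and EDEM3, and 2 (6.25%) lower, HSPA5 and ERN1. The members were split evenly, 16 above 0 (50%), against 53.5% of all genes, and 16 below 0 (50%), against 46.5%. The median was 0.0033, and of all genes 0.07.

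Both CL1-5 arrays lay below both CL1-0 arrays for 11 of the 32 genes (34.4%), against 34% of all genes, and above them for 10 (31.2%), against 43.2%. The 11 were HSPA5, HYOU1, MANF, DNAJB9, DNAJB11, PDIA6, HERPUD1, SEL1L, EDEM2, ERN1 and SEC61B. The 10 were HSP90B1, SDF2L1, DNAJC3, DNAJC10, CANX, TXNDC11, EDEM1, EDEM3, DERL1 and DERL3. HSPA5 and ERN1 were 2-fold lower in both line comparisons (6.25% of members), against 11.1% of all genes, and no member was 2-fold higher in both, against 12.2%. HSPA5 was not 2-fold lower on the AK4 arrays with quantile normalization, at -0.65, and with the probe sets of a gene averaged neither gene was 2-fold lower in either comparison, HSPA5 at -0.96 and ERN1 at -0.72 on the control arrays.

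The line values of the members depended on the scaling of the arrays. Quantile normalization moved the median of all genes on the control arrays to -0.06, and scaling to a common median moved it to -0.07, against 0.13 as given above. With these scalings the members' median was -0.11 and -0.46. The split of all genes moved to 12.4% higher and 16.6% lower with quantile normalization and to 13.0% and 18.4% with the common median, against 17.1% and 14.2%. On the control arrays P4HB and DERL3 changed sign with quantile normalization, and HSP90B1, DNAJC3, CANX and PDIA3 with the common median. On the AK4 arrays CRELD2 and CALR changed sign with quantile normalization, and DERL2 and ATF6 with the common median. HSPA5, DNAJB9, HERPUD1, SEL1L and ERN1 were called lower on the control arrays under both scalings. On the AK4 arrays ERN1 kept its call under both, and HSPA5 lost it with quantile normalization, as said above.

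Several members were read by probe sets that disagreed. Of the 32 genes 24 had more than 1 probe set, and 76 of the 81 probe sets lay above the floor on at least 1 array. On the control arrays all measured probe sets lay on 1 side of 0 for 14 of 23 members with several (60.9%), against 54.1% of such genes, and on the AK4 arrays for 14 of 22 (63.6%), against 51.6%. In the vector comparison this held for 9 of 22 (40.9%), against 49.3%, and in the shRNA comparison for 8 of 22 (36.4%), against 40.6%. The dimmer probe sets of a member had on the control arrays a median ratio above that of the brightest in 17 of 23 (73.9%), against 62.6% of such genes, and on the AK4 arrays in 15 of 22 (68.2%), against 62.3%. In the vector comparison this held for 13 of 22 (59.1%), against 45.5%, and in the shRNA comparison for 9 of 22 (40.9%), against 40.9%. The SD among probe sets of the same gene was 0.90 in each line comparison. The beta-actin ratio of 6.54 and 6.04 in CL1-0, against 1.61 and 1.34 in CL1-5, moves with the line, and so do the summed epithelial and alveolar markers given above. The part of each in these differences was not tested.

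**Figure D4:**
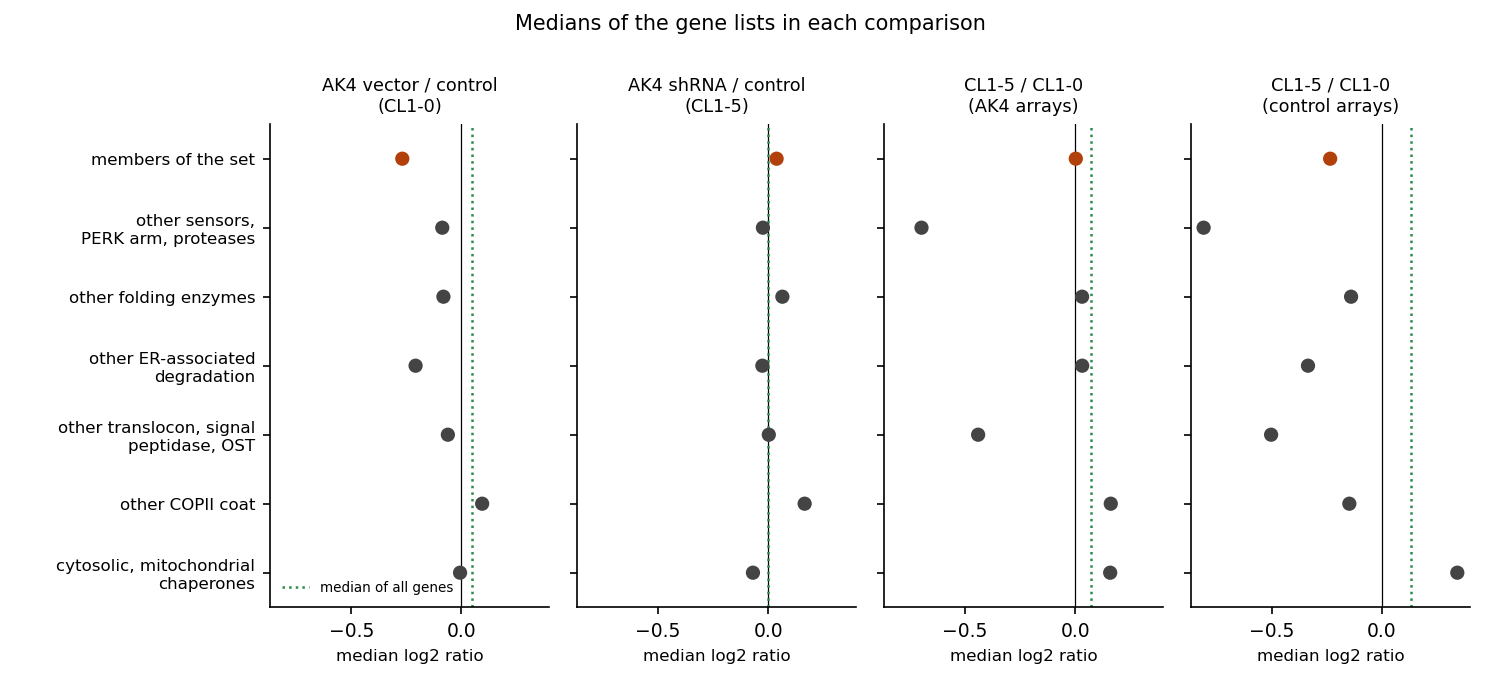
Median log2 ratio of the 32 members (top row, dark orange) and of 6 lists of other genes in 4 comparisons, with a dotted line at the median of all genes. The members lie at -0.27 in the vector and 0.04 in the shRNA comparison. The other sensors and PERK arm lie lowest between the lines, at -0.70 on the AK4 arrays and -0.81 on the control arrays.

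Genes of the same pathway outside the set were read from 6 lists. Of 13 other sensors, PERK arm genes and processing proteases, none was 2-fold higher and 5 were 2-fold lower in CL1-5. These counts held on the control arrays and on the AK4 arrays alike, at medians of -0.81 and -0.70. Of all genes 17.1% were higher and 14.2% lower on the control arrays, and 14.7% and 14.8% on the AK4 arrays. DDIT3 (CHOP), the factor that PERK signalling induces through ATF4, read 34.97 with AK4 shRNA and 34.2 with non-silencing shRNA in CL1-5, against 616 labelled AK4 vector and 913 with control vector in CL1-0. Its log2 ratio was -4.14 on the AK4 arrays and -4.74 on the control arrays. PPP1R15A (GADD34), which restores translation after PERK has slowed it, had a log2 ratio of -3.46 on the control arrays and of -1.80 in the vector comparison, at 291 labelled AK4 vector against 1011 with control vector. CHAC1, a glutathione-degrading enzyme downstream of ATF4, gave -3.14 on the AK4 arrays. In the vector comparison ATF4 itself had a log2 ratio of 0.30, which is from another pair of arrays and cannot be set against the CHAC1 value. PPP1R15A was the only gene of the 6 lists that was 2-fold lower in the vector comparison, and TMX3, a disulfide isomerase of the membrane, at 1.03, the only one 2-fold higher.

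Of 27 other folding enzymes, 2 were 2-fold higher and 5 lower in CL1-5 on the control arrays. FKBP7, a prolyl isomerase, had the highest ratio at 3.05, but its control vector signal of 6.99 lay at the floor, so the size is uncertain. FKBP10, a collagen chaperone, had the lowest at -2.47. Of 19 other degradation factors 2 were higher and 2 lower: VCP, the ATPase that pulls chains from the membrane, at 1.81 and MAN1B1 at 1.06, with SELENOS at -1.18 and HERPUD2 at -1.01. Of 21 other translocon, signal peptidase and oligosaccharyltransferase subunits none was higher and 3 lower, at a median of -0.50. SEC11C, a signal peptidase subunit, gave -1.26 and SSR4, a translocon-associated protein, -1.24. Of 11 other COPII coat genes 1 was higher, SEC23A at 1.90, and 1 lower, SEC24A at -1.12. Of the 2 SEC24A probe sets only 1 lay on that side of 0. Of 13 cytosolic and mitochondrial chaperones 2 were higher and 3 lower, among them HSPA9, the mitochondrial HSP70, at -1.43 and DNAJB1 at 1.05. In the shRNA comparison none of the 6 lists held a gene 2-fold higher or lower. On the AK4 arrays the counts higher and lower in CL1-5 were 2 and 6 of the 27 folding enzymes, 1 and 0 of 18 degradation factors, 1 and 2 of the 21 translocon, peptidase and transferase subunits, 1 and 1 of the 11 COPII genes and 2 and 3 of the 13 other chaperones. The shares of all genes past 2-fold are those given above for each comparison.

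**Figure D5:**
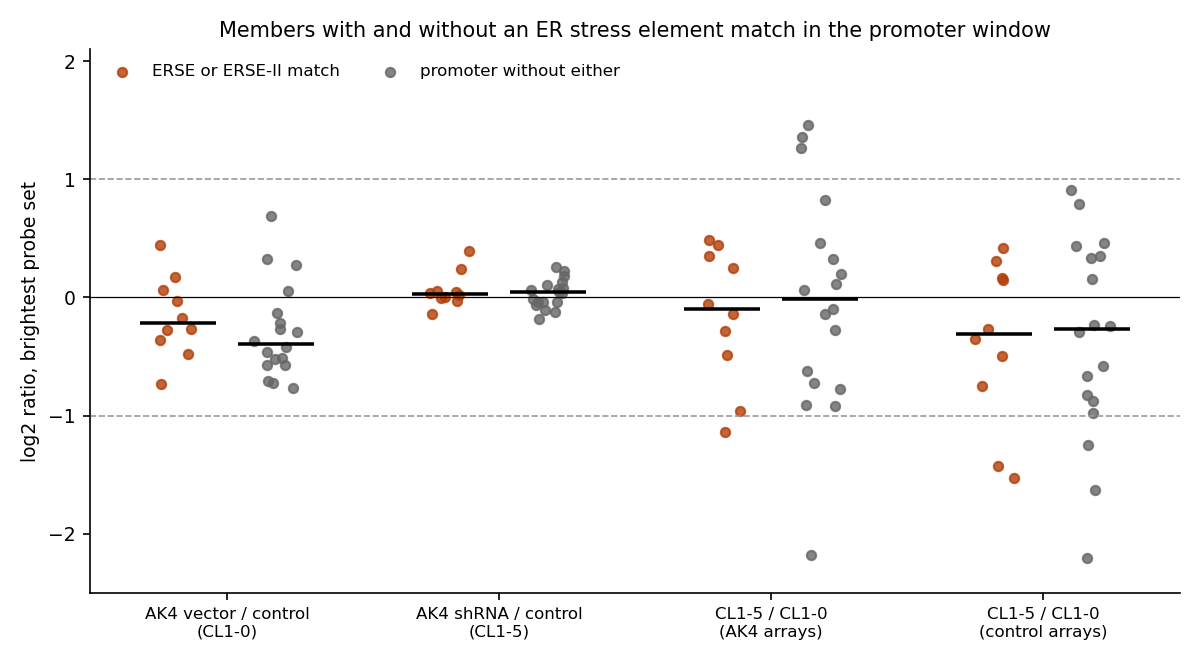
Log2 ratios of members with an ERSE or ERSE-II match in the promoter window (10 genes, dark orange) and of members with a window and neither (18 genes, grey) in 4 comparisons. Each point is 1 gene by its brightest probe set, bars are medians and dashed lines mark 2-fold. The medians are -0.22 and -0.39 in the vector comparison, 0.03 and 0.04 in the shRNA comparison.

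Of the members with both a signal and a promoter window, 10 held an ERSE or ERSE-II match and 18 held neither. In the vector comparison 7 of the 10 and 14 of the 18 lay below 0, at medians of -0.22 and -0.39. In the shRNA comparison the medians were 0.03 and 0.04. Between the lines they were -0.31 and -0.27 on the control arrays and -0.10 and -0.02 on the AK4 arrays. By their brightest probe sets HSPA5, HERPUD1 and XBP1, with the sequences shown above, were lower in CL1-5 on the control arrays. For XBP1 the ratio was under 2-fold, at -0.49, and its second probe set gave 1.06. HSP90B1, with a pair of ERSE matches, was slightly higher at 0.15, and its second probe set gave -0.03. DNAJB9, SEL1L and ERN1 were lower and held neither element in their windows. Over all genes with either element the medians were -0.02 in the vector, 0.02 in the shRNA, 0.15 in the control-array and 0.07 in the AK4-array comparison.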

How the data were processed

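RNA of 4 cultures was labelled with biotin and hybridised to Affymetrix HG-U133 Plus 2.0 arrays, 1 array per culture. The deposited values are linear intensities, 1 per probe set and array, on 54675 probe sets. The submitters' processing notes name MAS5. No source used here gives its version, its role or a scaling target. Deposited medians were 15.2 and 15.5 for the CL1-5 arrays and 6.23 and 6.06 for the CL1-0 arrays, so every array was multiplied to reach the same mean after trimming 2% of values from either end. Values under the 40th percentile of all scaled values (6.93, or 2.79 on the log2 scale) were set to that floor and log2 was taken. Of the probe sets, 41097 had 1 gene symbol and 1801 had several, which were not used. A gene was read from the probe set with the highest mean level, and was measured in a comparison where at least 1 of 2 arrays lay above the floor.

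Genotype labels gave the 4 groups. Since each holds 1 array no test could be run, and precision is limited by the number of arrays. All members were named, and of each other list the 2 highest and 2 lowest measured genes were eligible. The members and lists were chosen with earlier results of these data known. Alternatives were quantile normalization, a common median, a floor at the 60th percentile, no floor with 1 added, averaging the probe sets of a gene, leaving out the _x_at and _s_at probe sets, which can match several transcripts, and a 1.5-fold threshold. Promoter windows were RefSeq sequences of GRCh38.p14. Python 3.11.15, numpy 2.4.6, pandas 2.3.3 and matplotlib 3.10.9 were used, and the ratio step was tested on simulated data.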

Additional observations from a re-analysis of the deposited data

Results flagged for a closer look

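For 3 members the AK4-labelled array lay below its control in CL1-0 and above its control in CL1-5, each by more than the SD among probe sets of the same gene in that comparison. The log2 ratio in CL1-0 minus that in CL1-5 was -0.976 for XBP1, from -0.74 and 0.24. It was -0.799 for TXNDC11, from -0.57 and 0.23, and -0.671 for DNAJC3, from -0.42 and 0.25. In CL1-0 the label is an AK4 vector and in CL1-5 an shRNA against AK4, which are opposite manipulations. Opposite signs therefore do not show that the lines responded differently. The share of all genes that pass the SD in both comparisons in this way was not determined, so the count of 3 has no background beside it. By sign alone, below 0 in CL1-0 and above 0 in CL1-5, the shares were 37.5% of members and 20.3% of all genes. With 1 array in a group none of this was tested. The other probe sets of DNAJC3 lay below 0 in the shRNA comparison, so its direction rests on 1 probe set there. In the vector comparison its other measured probe sets gave 0.32 and -0.48, so they disagreed there too. The second XBP1 probe set gave 0.03 in the shRNA comparison and was not measured in the vector comparison, and TXNDC11 has 1 probe set.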

How the results depend on the processing

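The results for CL1-0 and CL1-5 within each line kept their counts of 0 members at 2-fold under the alternatives tried, with exceptions in the vector comparison. There 1 of 27 members, CALR at -1.30, was lower once the _x_at and _s_at probe sets were left out, against 1.09% of all genes. At 1.5-fold 1 was higher and 4 lower in the vector comparison, against 12.6% and 6.53% of all genes. The comparisons between lines moved more. On the control arrays quantile normalization gave 1 member higher (12.4% of all genes) and a median of -0.106. The common median gave 8 lower (18.4% of all genes) and a median of -0.457. Averaging the probe sets of a gene gave 3 higher, 1 lower (14.7% and 8.54% of all genes) and a median of 0.157. Leaving out the _x_at and _s_at probe sets gave 1 higher and 2 lower of 27 members (17.4% and 13.6% of all genes). The 1.5-fold threshold gave 3 higher and 10 lower (30.5% and 23.3% of all genes). On the AK4 arrays the count lower was 1 with quantile normalization, where HSPA5 lost its call, against 16.5% of all genes. It was 5 with the common median, near the 17.7% of all genes, at a members' median of -0.142. It was 0 with averaged probe sets, which gave 6 higher (12.6% of all genes, and 8.98% lower). There 1.5-fold gave 5 higher and 8 lower (27.4% and 24.5%). Called ratios reversed for SEL1L, at 0.26 with averaged probe sets, and for HERPUD1, at 0.30 with the _x_at and _s_at probe sets left out, both on the control arrays. SEL1L has no probe set left without these, and HERPUD1 is then read by its dim probe set. Both floor alternatives kept every count. With the _x_at and _s_at probe sets left out, 27 members remained. The cause of the moves was not tested. No paired analysis was possible because each group has 1 array and the labels carry no replicate numbers that pair arrays across lines. Signal over background limits the dim members, such as DERL3, and 1 array per group limits all values.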
